A study of Homo sapiens with 33 samples.

Results

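Messenger RNA levels of 36 genes of cholesterol synthesis, uptake and efflux were described across 33 RNA-seq libraries of human leukaemia cell lines. The 36 genes were a fixed list of gene symbols, matched through their gene identifiers, and all 36 were found among the 62446 genes in the count tables. They were 7 enzymes of the mevalonate steps, 11 enzymes from squalene to cholesterol, 5 regulators of the sterol-sensing transcription factors, 3 enzymes of fatty acid synthesis, 3 proteins of intracellular cholesterol transport and 7 genes of liver X receptor signalling, efflux and storage. The list is not every gene of the pathway.

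Nalm6 is a B-cell precursor acute lymphoblastic leukaemia line, CEM is a T-cell acute lymphoblastic leukaemia line, and TLE1 KO cells are Nalm6 cells edited with CRISPR/Cas9 at the gene of the co-repressor TLE1. Nalm6 was untreated or treated for 24 h with 0.5 µM CHIR-99021, which blocks GSK3 and so switches on Wnt signalling, or with 5 µM prednisolone, a synthetic glucocorticoid. A further set of Nalm6 libraries held an untreated group of its own and a group given 100 nM dexamethasone, another synthetic glucocorticoid. TLE1 KO cells were untreated, given 5 µM prednisolone or given 100 nM dexamethasone. CEM was untreated, given 2 µM CHIR-99021 or given 10 µM prednisolone. No label states which untreated Nalm6 group belongs with the prednisolone and CHIR-99021 libraries; the names of the deposited tables have 1 form over these and the first untreated group and another over the dexamethasone set, and the first group was used for them. Each of the 11 groups had 3 libraries. The labels state charcoal-stripped serum for the Nalm6 and knockout cultures and give no number of knockout clones. The series text states independent experiments for some groups; for the others nothing tells cultures from technical repeats, so p-values measure only the spread between these libraries.

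Cells make cholesterol from acetyl-CoA through mevalonate, squalene and lanosterol. When sterols in the endoplasmic reticulum run low, the escort protein SCAP carries the transcription factors SREBP-1 and SREBP-2 to the Golgi for cleavage, and the released fragments raise transcription of the synthesis genes and of fatty acid enzymes; INSIG proteins hold SCAP back when sterols are plentiful. In the opposite direction, liver X receptors sense oxysterols and raise the exporters ABCA1 and ABCG1 and the ubiquitin ligase MYLIP. Lymphoid cells draw on this pathway when they grow and divide.

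The libraries held 25292579 to 61930057 gene-assigned counts. Summed over 6 B-lineage markers, levels were 1336 to 1860 CPM (counts scaled to a library total of 1000000) in the Nalm6 and knockout libraries and 38.2 to 79.0 CPM in CEM. Summed over 6 T-lineage markers, they were 1258 to 1401 CPM in CEM and 2.83 to 7.03 CPM in the others. The 4 myeloid markers that could be matched to a gene identifier summed to at most 5.21 CPM in any library. The glucocorticoid-induced gene TSC22D3 rose by 3.99 to 5.96 on the log2 scale in the 4 glucocorticoid comparisons. AXIN2, a usual target of Wnt signalling, was not called under CHIR-99021 in Nalm6 (log2 fold change -0.19 ± 0.09) or in CEM (0.56 ± 0.18). The TLE1 transcript was at 32.0 CPM in untreated Nalm6 and 24.5 CPM in untreated knockout cells (log2 difference -0.36 ± 0.06), so the edited line still held the transcript. In bulk RNA, a change in the share of cells in a state and a change per cell cannot be told apart.

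Promoter sequences are shown for 4 genes that stand for the kinds of response seen, chosen after their values were known: MSMO1 and FDPS fell under every glucocorticoid comparison, LSS rose in Nalm6 and fell in CEM, and ABCA1 rose in Nalm6 and fell under CHIR-99021. Each is 300 bases of RefSeq sequence on GRCh38.p14, from 250 bases before the annotated start to 50 after it, printed 5′ to 3′ on the gene's strand. Capitals mark the CCAAT box, to which NF-Y binds, and the GC box GGGCGG, to which Sp1-type factors bind, on either strand (ATTGG and CCGCCC on the other). NF-Y and Sp1 are known partners of SREBPs at sterol genes.
MSMO1, chr4:165327419-165327718, plus strand: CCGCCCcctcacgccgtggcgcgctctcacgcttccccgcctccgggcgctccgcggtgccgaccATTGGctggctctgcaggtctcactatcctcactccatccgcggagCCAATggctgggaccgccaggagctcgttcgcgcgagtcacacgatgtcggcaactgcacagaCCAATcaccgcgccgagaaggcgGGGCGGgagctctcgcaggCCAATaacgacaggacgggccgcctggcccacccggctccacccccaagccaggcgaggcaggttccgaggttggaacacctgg
FDPS, chr1:155308616-155308915, plus strand: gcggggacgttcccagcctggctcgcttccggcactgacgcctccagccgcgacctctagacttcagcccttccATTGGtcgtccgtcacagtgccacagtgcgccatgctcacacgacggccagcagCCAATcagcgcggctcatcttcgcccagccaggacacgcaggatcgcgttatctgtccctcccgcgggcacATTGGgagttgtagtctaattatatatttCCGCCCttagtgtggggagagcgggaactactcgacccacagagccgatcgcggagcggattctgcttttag
LSS, chr21:46228725-46229024, minus strand: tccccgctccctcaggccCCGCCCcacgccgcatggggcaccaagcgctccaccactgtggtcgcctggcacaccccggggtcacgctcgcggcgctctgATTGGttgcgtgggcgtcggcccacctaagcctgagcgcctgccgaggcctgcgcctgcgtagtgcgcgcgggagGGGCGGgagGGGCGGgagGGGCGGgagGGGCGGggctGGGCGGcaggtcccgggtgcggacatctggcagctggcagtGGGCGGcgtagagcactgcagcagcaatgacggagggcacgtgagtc
ABCA1, chr9:104928106-104928405, minus strand: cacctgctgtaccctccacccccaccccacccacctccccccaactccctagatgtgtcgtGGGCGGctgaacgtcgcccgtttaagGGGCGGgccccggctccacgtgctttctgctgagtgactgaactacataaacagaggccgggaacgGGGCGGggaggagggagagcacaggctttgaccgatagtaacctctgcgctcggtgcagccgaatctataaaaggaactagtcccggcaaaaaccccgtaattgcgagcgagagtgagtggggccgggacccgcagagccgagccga
Of the 36 genes, 31 had such a promoter in the RefSeq table. CCAAT was present on at least 1 strand in 19 of the 31 (61.3%), against 34.6% of all 35116 promoters of that length. GGGCGG was present in 27 of the 31 (87.1%), against 45.0% of all. The window of MSMO1 holds 4 CCAAT matches and that of FDPS 3; LSS has 1 and ABCA1 none. The sterol element TCACNCCAC was found in 1 of the 31, SREBF2 (3.23%, against 1.13% of all). The glucocorticoid half-site TGTTCT was found in 1 of the 31, PMVK (3.23%, against 14.8% of all). Neither the full glucocorticoid element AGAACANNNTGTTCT (0.00285% of all promoters), the liver X receptor repeat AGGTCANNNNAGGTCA (0.0199%) nor the TCF letters CTTTGAT (2.62%) occurred in any of the 31 windows. A match or its absence describes these letters in these windows only. The full glucocorticoid element and the liver X receptor repeat were searched with every fixed letter required, and 1 and 7 of all 35116 promoters held them. Sites that differ by a letter were not searched for. The absence of these exact letters therefore cannot tell whether such sites lie in the windows, that of ABCA1 included.

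The first question was how the genes respond to prednisolone in Nalm6. Most synthesis genes were lower after 24 h, led by SCD, DHCR7 and HMGCS1, while LSS and ABCA1 were more than doubled. A gene is called when its adjusted p is under 0.05 in edgeR's quasi-likelihood test with Benjamini-Hochberg adjustment over all genes tested. Of the 36 genes, 8 rose and 21 fell, where 28.7% of all tested genes rose and 26.1% fell. The median log2 fold change was -0.22 over the 36 and 0.03 over all genes tested. Of the 18 mevalonate and squalene-to-cholesterol enzymes, 4 rose and 12 fell.

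HMGCS1 makes HMG-CoA, the substrate of mevalonate synthesis. It was at 274, 266 and 264 CPM in the untreated Nalm6 libraries and at 165, 167 and 159 CPM with prednisolone. The groups did not overlap, and the fall was 0.74 ± 0.04 (SE) on the log2 scale (edgeR adjusted p = 1.31e-11). DHCR7, the last reductase of the pathway, was at 103, 103 and 106 CPM untreated and 57.3, 53.5 and 56.8 CPM treated (log2 fold change -0.93 ± 0.04, edgeR adjusted p = 7.9e-12). Every treated library of both genes lay below every untreated one. Of the other mevalonate enzymes, ACAT2, MVK, PMVK and FDPS fell by 0.31 to 0.55, and MVD, which decarboxylates mevalonate diphosphate, was not called (-0.04 ± 0.05). Between squalene and cholesterol, FDFT1, SQLE, CYP51A1, MSMO1, NSDHL and EBP fell by 0.14 to 0.57, and HSD17B7 was not called.

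LSS, which closes squalene epoxide into lanosterol, moved against its neighbours. Its level was 189, 189 and 190 CPM in untreated Nalm6 and 460, 472 and 463 CPM with prednisolone (log2 fold change 1.27 ± 0.03, edgeR adjusted p = 7.11e-15). SQLE, which acts just before it, fell from 108, 110 and 111 CPM to 75.9, 75.5 and 80.7 CPM, and MSMO1, which acts soon after it, fell from 82.5, 79.8 and 85.2 CPM to 66.1, 61.7 and 63.8 CPM. Thus 3 enzymes acting close together in the route moved in different directions in the same libraries. IDI1, which isomerises isopentenyl diphosphate, was higher as well, at 199, 193 and 186 CPM untreated and 263, 257 and 268 CPM treated (0.42 ± 0.04, edgeR adjusted p = 7.31e-08). TM7SF2 and SC5D, a sterol reductase and a desaturase, rose by 0.42 and 0.21. When LSS was counted without regard to strand, its log2 fold change was 1.32.

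SREBF1, which encodes SREBP-1, fell furthest among the 5 regulators. It was at 142, 148 and 152 CPM untreated and at 82.7, 76.1 and 81.9 CPM with prednisolone (log2 fold change -0.91 ± 0.04, edgeR adjusted p = 1.67e-11). SREBF2, which encodes SREBP-2, fell by 0.18 and INSIG1 by 0.22; INSIG2 and SCAP were not called. All 3 fatty acid enzymes fell. SCD, the desaturase that makes oleate, went from 335, 341 and 347 CPM to 164, 162 and 161 CPM (-1.10 ± 0.04, edgeR adjusted p = 6.2e-14). FASN and ACACA, which build the fatty acid chain and its malonyl-CoA substrate, fell by 0.68 and 0.58.

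ABCA1, the exporter that loads cholesterol onto apolipoprotein A-I, was at 52.7, 50.7 and 50.7 CPM untreated and 115, 120 and 115 CPM with prednisolone (log2 fold change 1.16 ± 0.04, edgeR adjusted p = 9.63e-14). ABCG1, its partner exporter, overlapped between the groups (-0.01 ± 0.05). The efflux genes therefore did not share 1 direction: MYLIP rose by 0.15, NR1H2, which encodes liver X receptor beta, fell by 0.21, and NR1H3 was not called. NPC2, the soluble lysosomal sterol carrier, rose from 20.02, 21.5 and 21.1 CPM to 28.7, 29.2 and 29.1 CPM (0.45 ± 0.05, edgeR adjusted p = 2.8e-07). NPC1, its membrane partner, rose by 0.15, and STARD4, a cytosolic sterol carrier, fell by 0.33. SOAT1, which esterifies cholesterol for storage, fell by 0.24. APOE, an apolipoprotein, was below 1 CPM in every library and was tested in 12 comparisons and called in 0 by edgeR or DESeq2, with an unadjusted p under 0.05 in 0.

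The calls of NSDHL and MYLIP were lost when single libraries were left out, with adjusted p up to 0.0854 without untreated replicate 3 and up to 0.109 without untreated replicate 2; MYLIP was not called by DESeq2 (adjusted p = 0.0949) or by edgeR with all genes kept (0.137). With the untreated group of the dexamethasone set in place, 6 genes rose and 23 fell, where 31.8% of all tested genes rose and 32.5% fell, and 23 of the 29 calls kept call and direction. TM7SF2 then changed sign (-0.39, edgeR adjusted p = 0.000211), and the calls of PMVK, NSDHL, NPC1, NPC2 and SOAT1 were lost (edgeR adjusted p from 0.0938 to 0.986). LSS, IDI1 and ABCA1 kept theirs, at 1.13, 0.19 and 0.46, and MVD was called lower (-0.50). With the first untreated group, 28.7% of all tested genes rose and 26.1% fell. In a wider list of 28 related genes, 27 were tested, of which 6 rose and 12 fell. The largest changes there were LPIN1, a phosphatidate phosphatase (1.06 ± 0.04), ELOVL6, a fatty acid elongase (-1.01 ± 0.06), PLTP, a phospholipid transfer protein (-0.81 ± 0.06), and TMEM97, a sterol-regulated membrane protein (-0.78 ± 0.04).

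**Figure D1:**
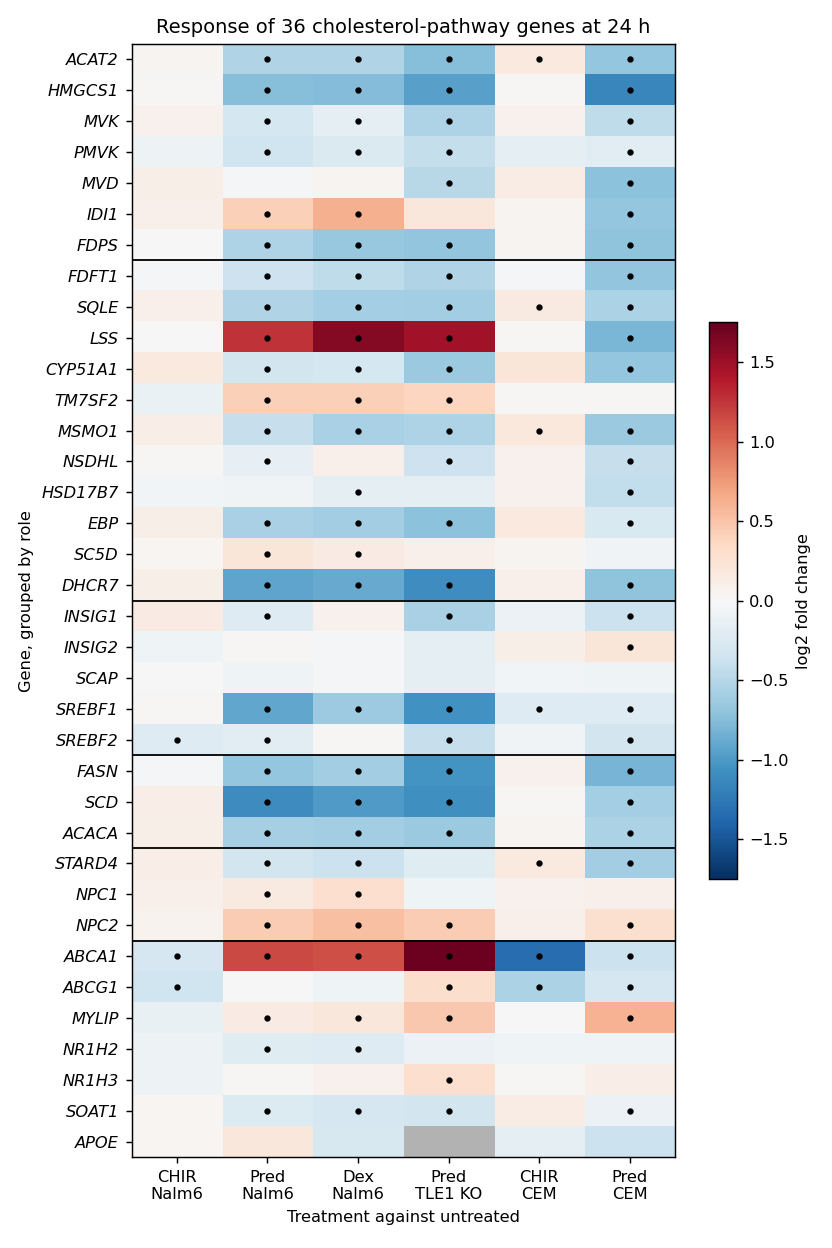
Heat map of log2 fold changes of the 36 genes (rows, grouped by role with black lines between roles) in 6 treatment comparisons (columns); black dots mark calls at adjusted p under 0.05 and grey is not tested. The 4 glucocorticoid columns are mostly blue, with 19 to 26 genes lower, while LSS is red in the Nalm6 and knockout columns and blue in CEM.

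Dexamethasone, given to Nalm6 at 100 nM and set against its own untreated group, was the second glucocorticoid. Of the 36 genes, 8 rose and 19 fell, where 30.2% of all tested genes rose and 30.2% fell. The median log2 fold change was -0.20 over the 36 and 0.02 over all genes. Of the 18 synthesis enzymes, 4 rose and 12 fell, and all 3 fatty acid enzymes fell. Doses and library sets differ from those of prednisolone, so values are given side by side without a comparison.

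LSS stood at 186, 201 and 201 CPM untreated and 613, 621 and 598 CPM with dexamethasone (log2 fold change 1.60 ± 0.04, edgeR adjusted p = 2.29e-13). IDI1 stood at 234, 206 and 196 CPM untreated and 327, 333 and 346 CPM treated (0.62 ± 0.06, edgeR adjusted p = 5.87e-07). These enzymes, with TM7SF2 (0.41) and SC5D (0.15), were the 4 that rose. HMGCS1 fell from 298, 295 and 284 CPM to 172, 180 and 179 CPM (-0.76 ± 0.04, edgeR adjusted p = 9.24e-10). DHCR7 fell by 0.89, FDPS by 0.67, EBP by 0.61 and SQLE by 0.60. SCD fell from 385, 395 and 398 CPM to 195, 203 and 209 CPM (-0.99 ± 0.04, edgeR adjusted p = 5.44e-11). The groups of these named genes did not overlap.

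SREBF1 was the only regulator called under dexamethasone, at 188, 203 and 219 CPM untreated and 137, 132 and 133 CPM treated (log2 fold change -0.64 ± 0.05, edgeR adjusted p = 3.37e-08). INSIG1 (0.07 ± 0.04) and SREBF2 (0.02 ± 0.05) were not called. ABCA1 was at 77.05, 80.9 and 77.4 CPM untreated and 183, 182 and 165 CPM treated (1.13 ± 0.04, edgeR adjusted p = 3.97e-11). NPC2 rose from 26.6, 27.9 and 25.9 CPM to 39.2, 40.3 and 39.4 CPM (0.53 ± 0.05, edgeR adjusted p = 2.3e-07), and NPC1 rose by 0.30. Both lysosomal sterol carriers were thus higher in every treated library. The calls of PMVK, CYP51A1, HSD17B7, SC5D and MYLIP were lost when single libraries of either group were left out, with adjusted p up to 0.0806, 0.0664, 0.0611, 0.105 and 0.0713. In the wider list 7 of 26 tested genes rose and 13 fell, where 30.2% of all tested genes rose and 30.2% fell. ELOVL6 was at -1.21 ± 0.06, LPIN1 at 1.10 ± 0.04, TMEM97 at -1.05 ± 0.04 and PLTP at -0.97 ± 0.06.

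**Figure D2:**
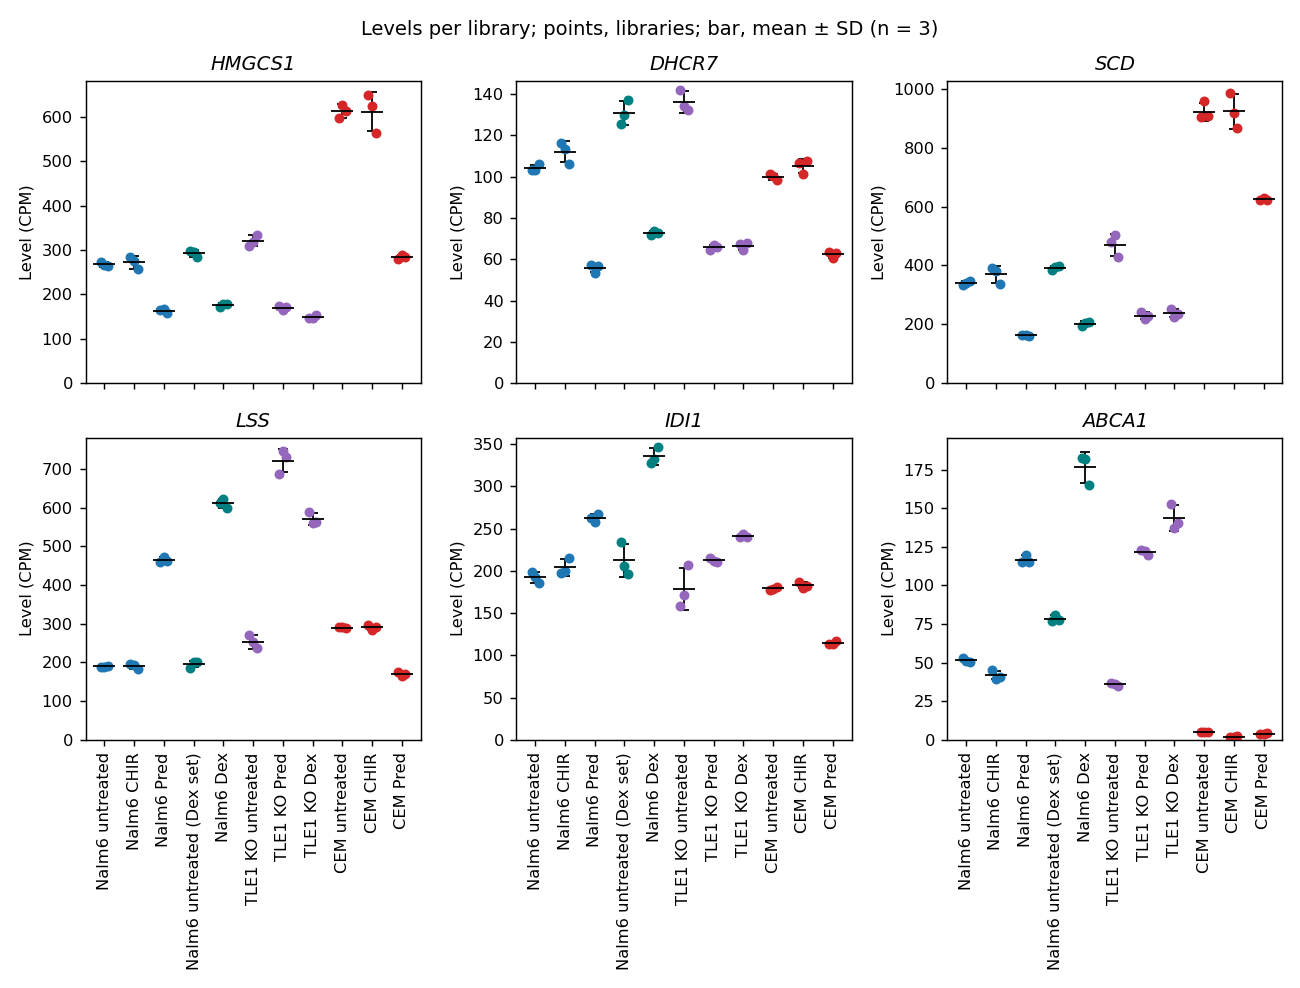
Level in CPM (vertical axes, starting at 0) of 6 genes in each of the 33 libraries (points) of the 11 groups, with the group mean and SD as bars, n = 3. In each glucocorticoid group that was compared with untreated cells HMGCS1, DHCR7 and SCD are lower, and in those of Nalm6 and the knockout LSS and ABCA1 are higher. The knockout dexamethasone group has no untreated group named for it. ABCA1 is under 5 CPM in every CEM library.

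Prednisolone in the TLE1 knockout cells lowered most of the same enzymes. Of 35 genes tested, 7 rose and 20 fell, where 19.8% of all tested genes rose and 21.9% fell; APOE was too low to test. The median log2 fold change was -0.41 over the 35 and -0.00 over all genes. Of the 18 synthesis enzymes 2 rose, LSS and TM7SF2, and 13 fell. Of the 29 genes called in parental cells and the 27 called in knockout cells, 24 were called in both, which is 82.8% and 88.9% of each, where over all genes tested in both the shares were 62.0% and 87.1%. All 24 moved in the same direction, where 99.3% of the genes called in both over the whole table did.

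HMGCS1 fell from 310, 319 and 334 CPM in untreated knockout cells to 173, 165 and 173 CPM (log2 fold change -0.96 ± 0.06, edgeR adjusted p = 1.59e-06). DHCR7 fell from 142, 135 and 132 CPM to 64.6, 66.7 and 66.0 CPM (-1.09 ± 0.06, edgeR adjusted p = 2.43e-07). LSS rose from 271, 252 and 236 CPM to 687, 746 and 731 CPM (1.47 ± 0.07, edgeR adjusted p = 1.31e-07). In each of these the treated and untreated libraries were fully apart. IDI1 was at 159, 172 and 207 CPM untreated and 215, 211 and 211 CPM treated, which was not called (0.20 ± 0.09, edgeR adjusted p = 0.109); the spread among untreated libraries was wide.

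SREBF1 fell from 181, 172 and 156 CPM to 76.1, 88.5 and 86.4 CPM (log2 fold change -1.06 ± 0.07, edgeR adjusted p = 2.07e-06), INSIG1 by 0.57 and SREBF2 by 0.41. SCD fell from 479, 502 and 427 CPM to 241, 219 and 229 CPM (-1.07 ± 0.08, edgeR adjusted p = 2.24e-06). FASN fell by 1.05 and ACACA by 0.64. NPC2 rose from 24.0, 23.4 and 23.8 CPM to 34.6, 33.4 and 31.8 CPM (0.45 ± 0.07, edgeR adjusted p = 0.000449). ABCA1 rose from 36.9, 36.4 and 35.1 CPM to 123, 122 and 120 CPM (1.71 ± 0.06, edgeR adjusted p = 1e-08). Of the 7 genes of liver X receptor signalling, efflux and storage, 6 were tested, of which 4 rose and 1 fell: ABCG1 rose by 0.31, MYLIP by 0.47 and NR1H3, which encodes liver X receptor alpha, by 0.30, although the call of NR1H3 was lost without untreated knockout replicate 2 and without treated replicate 1 or 2 (adjusted p up to 0.071). SOAT1 fell by 0.32, and NR1H2 was not called (-0.10 ± 0.06). In the wider list 4 of 26 tested genes rose and 12 fell, where 19.8% of all tested genes rose and 21.9% fell. ELOVL6 was at -0.93 ± 0.07, FADS2, a fatty acid desaturase, at -0.91 ± 0.06, TMEM97 at -0.82 ± 0.07 and FADS1 at -0.69 ± 0.06.

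Whether the knockout and parental responses to prednisolone differ was tested as an interaction. The response was higher in the knockout for 3 genes and lower for 2, where 1.10% of all tested genes had a higher response and 2.38% a lower one. ABCA1 responded more strongly in the knockout, by 0.58 ± 0.07 (edgeR adjusted p = 6.96e-05), starting from a lower untreated level. MVD was called lower in the knockout and not called in parental cells. It went from 91.2, 84.0 and 84.9 CPM to 61.0, 64.9 and 65.2 CPM in the knockout and from 61.7, 62.6 and 62.8 CPM to 57.6, 61.9 and 65.4 CPM in parental cells, and the difference between responses was -0.42 ± 0.08 (edgeR adjusted p = 0.00576). ABCG1 (0.35 ± 0.08), MYLIP (0.34 ± 0.08) and INSIG1 (-0.32 ± 0.08) were the other called differences. These 3 calls were each lost without several single libraries, with adjusted p up to 0.0714, 0.0775 and 0.097. The number of calls was 2 without untreated parental replicate 1 or 3 or treated parental replicate 1. It was 3 without untreated parental replicate 2 or treated knockout replicate 3, and 8 without untreated knockout replicate 3. Of all tested genes, 1.99%, 2.07% and 2.27% were called in the fits with 2 calls. The shares were 2.04% and 2.40% in those with 3 calls and 9.96% in that with 8. LSS, SCD, HMGCS1 and DHCR7 had differences of 0.23 ± 0.07, 0.05 ± 0.09, -0.19 ± 0.07 and -0.14 ± 0.07, none of which was called by edgeR; DESeq2 called LSS (adjusted p = 0.0223). With the untreated parental group of the dexamethasone set in place, 15 genes were called, 12 higher and 3 lower, where 12.9% and 11.7% of all tested genes were, and ABCA1, ABCG1 and MYLIP of the 5 kept their calls. MVD was then at 0.03 and INSIG1 at 0.04, neither called.

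Untreated knockout cells had higher levels of many synthesis genes than the untreated parental group named without a set. Of the 36 genes, 20 were higher and 1, ABCA1, was lower, where 15.3% of all tested genes were higher and 11.8% lower. The median log2 difference was 0.20 over the 36 and -0.01 over all genes. This count rested on the choice of parental libraries. Reads in no gene were 23.9% to 27.5% in the untreated knockout libraries and 26.4% to 28.3% in the first parental group. They were 19.2% to 19.7% in the untreated parental group of the dexamethasone set. In the comparison with that second group, genotype and library set cannot be told apart. Against the untreated parental group of the dexamethasone set, 6 genes were higher and 7 lower, where 19.5% of all tested genes were higher and 17.0% lower, and 6 of the 21 calls kept their call and direction. Between the 2 untreated parental groups themselves 26 genes were called, with 22 genes higher in the dexamethasone set and 4 lower, where 25.8% of all tested genes were higher and 24.4% lower.

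The 6 genes that kept their call and direction against both parental groups were PMVK, SQLE, LSS, INSIG2, SCD and ABCA1. LSS was higher in the knockout by 0.44 ± 0.06 (edgeR adjusted p = 0.000412) and, against the other group, by 0.34. SCD, at 479, 502 and 427 CPM in the knockout, was above the 335, 341 and 347 CPM of the first parental group and the 385, 395 and 398 CPM of the second (0.48 ± 0.06, edgeR adjusted p = 0.000473, and 0.23). ABCA1, at 36.9, 36.4 and 35.1 CPM in the knockout, was below 52.7, 50.7 and 50.7 CPM in the first and below 77.05, 80.9 and 77.4 CPM in the second (-0.48 ± 0.05, edgeR adjusted p = 0.000104, and -1.15). For SCD and ABCA1 no knockout library overlapped either parental group. The calls of PMVK and INSIG2 against the first group were lost without any 1 of the untreated parental libraries and without some knockout libraries (adjusted p up to 0.0903 and 0.165).

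Other genes changed sign with the parental group. TM7SF2, at 21.8, 21.3 and 19.5 CPM in the knockout, lay between 14.4, 15.5 and 15.8 CPM in the first parental group and 22.3, 26.0 and 27.3 CPM in the second, so its log2 difference was 0.48 ± 0.07 (edgeR adjusted p = 0.000868) against the first and -0.30 against the second. NPC2, at 24.0, 23.4 and 23.8 CPM, lay between the parental groups in the same way (0.21 ± 0.06, edgeR adjusted p = 0.02, and -0.20), as did SREBF1 (0.23 and -0.29). MVD, the largest mevalonate difference against the first group (0.50 ± 0.05, edgeR adjusted p = 7.75e-05), was at 0.08 against the second and not called. SREBF2 was at 314, 320 and 242 CPM in the knockout and 233, 246 and 243 CPM in the first parental group (0.30 ± 0.09, edgeR adjusted p = 0.0389); replicate 3 of the knockout overlapped the parental libraries. Without untreated parental replicate 1, 2 or 3 the count of 21 calls became 9, 10 and 10, and in the other left-out fits it was 15 to 25. Of all tested genes, 16.5%, 16.8% and 17.2% were called without those parental libraries and 19.5% to 36.7% in the other left-out fits. Against the first group, 7 of 27 tested genes of the wider list were higher and 1 lower. Of all tested genes 15.3% were higher and 11.8% lower. ELOVL6 was at 0.85 ± 0.06, FADS2 at 0.42 ± 0.05, PLTP at 0.40 ± 0.06 and ACSS2, an acetyl-CoA synthetase, at 0.27 ± 0.06.

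**Figure D3:**
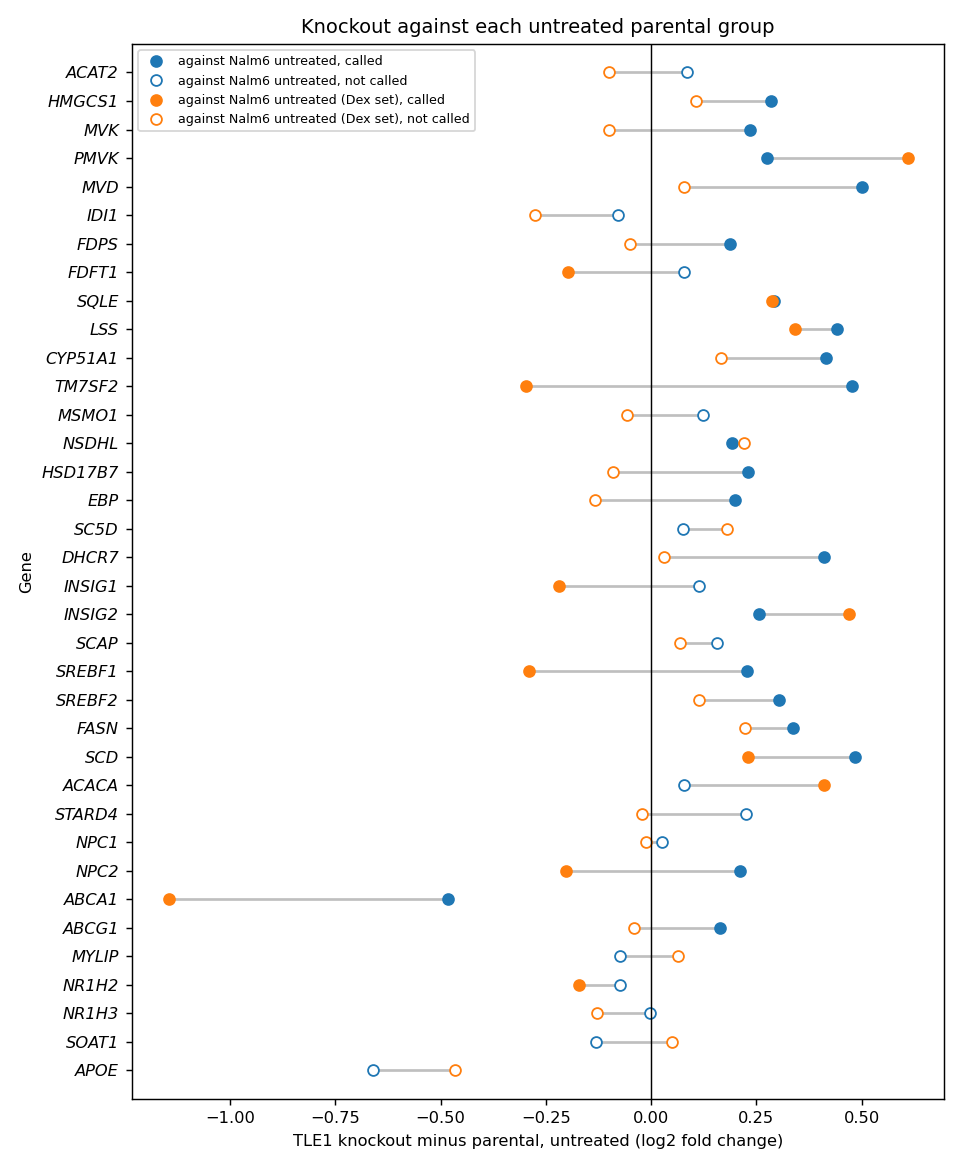
Log2 difference between untreated knockout and untreated parental cells (horizontal axis) for each of the 36 genes (vertical axis), against the first parental group (blue) and the group of the dexamethasone set (orange); filled points are called and open points are not. SQLE, LSS, SCD, PMVK and INSIG2 are filled and right of 0 in both colours, ABCA1 is filled and left of 0 in both, and TM7SF2, SREBF1 and NPC2 are filled on opposite sides.

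The untreated parental groups differed in the following genes by the most. TM7SF2 was higher in the dexamethasone set by 0.78 ± 0.07 (edgeR adjusted p = 3.64e-06), ABCA1 by 0.67 ± 0.04 (edgeR adjusted p = 1.24e-07), SREBF1 by 0.53, MVD by 0.43, NPC2 by 0.42 and DHCR7 by 0.39. ACACA, at 238, 241 and 234 CPM in the first group and 174, 186 and 186 CPM in the second, was lower by 0.32 ± 0.04 (edgeR adjusted p = 1.75e-05). SQLE, SCAP, FASN and NPC1 were among the 10 not called.

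Under dexamethasone the knockout was compared with parental cells at the same dose and time; the names of the deposited tables put these knockout and parental libraries in different number series, so genotype and set cannot be told apart. Of the 36 genes, 12 were higher in the knockout and 15 lower, where 28.5% of all tested genes were higher and 28.1% lower, and the median difference was -0.04. LSS, at 589, 560 and 562 CPM in the knockout and 613, 621 and 598 CPM in parental cells, was high in both. IDI1 was lower in the knockout, at 240, 243 and 240 CPM against 327, 333 and 346 CPM (-0.46 ± 0.03, edgeR adjusted p = 6.01e-11). ABCG1 was higher, at 138, 138 and 142 CPM against 99.8, 99.1 and 95.6 CPM (0.52 ± 0.03, edgeR adjusted p = 1.29e-11). TM7SF2 was higher at 44.5, 45.5 and 46.9 CPM against 35.4, 32.8 and 34.5 CPM (0.43 ± 0.04, edgeR adjusted p = 2.41e-08). These genes had no overlap between the genotypes. FASN was lower by 0.34, ABCA1 by 0.29 and INSIG1 by 0.22, while STARD4 was higher by 0.37 and PMVK by 0.37. The small difference of LSS (-0.09 ± 0.03, edgeR adjusted p = 0.0159) lost its call without knockout replicate 2 or 3 or parental replicate 2 (adjusted p up to 0.127).

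In CEM, prednisolone at 10 µM lowered nearly the whole synthesis route. Of the 36 genes, 3 rose and 26 fell, where 22.3% of all tested genes rose and 22.8% fell. The median log2 fold change was -0.39 over the 36 and 0.02 over all genes. All 7 mevalonate enzymes fell, as did 9 of the 11 squalene-to-cholesterol enzymes and all 3 fatty acid enzymes; TM7SF2 (0.03 ± 0.06) and SC5D (-0.06 ± 0.04) were not called. The call of PMVK was lost without untreated replicate 2 or treated replicate 2 or 3, and that of SOAT1 without untreated replicate 1 or treated replicate 3 (adjusted p up to 0.231 and 0.0591).

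HMGCS1 fell from 597, 628 and 614 CPM to 280, 290 and 283 CPM (log2 fold change -1.14 ± 0.03, edgeR adjusted p = 2.82e-15). LSS fell from 291, 290 and 288 CPM to 176, 165 and 170 CPM (-0.80 ± 0.03, edgeR adjusted p = 8.11e-13). DHCR7 fell from 101, 100 and 98.3 CPM to 63.6, 60.7 and 63.1 CPM (-0.71 ± 0.03, edgeR adjusted p = 7.04e-12). In CEM, therefore, LSS moved with its neighbours, and treated and untreated libraries of these 3 genes were apart. FDPS, FDFT1, ACAT2, CYP51A1, IDI1 and MSMO1 fell by 0.65 to 0.70. FASN fell from 725, 802 and 747 CPM to 457, 429 and 432 CPM (-0.82 ± 0.04, edgeR adjusted p = 7.79e-12), SCD by 0.59 and ACACA by 0.56.

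Among the regulators INSIG1 fell from 653, 625 and 653 CPM to 516, 504 and 495 CPM (log2 fold change -0.38 ± 0.03, edgeR adjusted p = 8.51e-09), SREBF2 fell by 0.32 and SREBF1 by 0.23, and INSIG2 rose by 0.21. STARD4 fell from 137, 126 and 137 CPM to 86.6, 88.4 and 92.6 CPM (-0.61 ± 0.04, edgeR adjusted p = 3.19e-10). MYLIP and NPC2 rose. MYLIP, whose product marks lipoprotein receptors for degradation, went from 4.81, 5.46 and 5.999 CPM to 7.55, 9.67 and 7.84 CPM (0.60 ± 0.11, edgeR adjusted p = 0.000141). ABCG1 fell by 0.30. ABCA1, already low at 4.79, 4.72 and 4.79 CPM, was at 3.45, 3.72 and 4.16 CPM with prednisolone (-0.37 ± 0.10). Its untreated values are also those of its fall under CHIR-99021 in CEM, which was known when the gene list was drawn up. The values of ABCA1 here are therefore a description, although it is counted among the lower genes. In the wider list 5 of 26 tested genes rose and 14 fell, where 22.3% of all tested genes rose and 22.8% fell. VLDLR, a lipoprotein receptor, was at -1.08 ± 0.05 and FADS1 at -0.72 ± 0.03. ACLY, which makes cytosolic acetyl-CoA, was at -0.57 ± 0.03 and FADS2 at -0.56 ± 0.03.

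The responses of the lines to prednisolone were set against each other as an interaction. Line and dose differ together, serum may differ too, and these cannot be told apart. The response was higher in CEM for 6 genes and lower for 16, where 14.7% of all tested genes had a higher response and 12.2% a lower one. LSS had the widest difference, -2.05 ± 0.05 (edgeR adjusted p = 1.4e-19), followed by ABCA1 (-1.51 ± 0.09) and IDI1 (-1.08 ± 0.05, edgeR adjusted p = 4.13e-14). LSS, ABCA1 and IDI1 each rose in Nalm6 and fell in CEM. The difference of ABCA1 is a description, since it rests on the same untreated CEM values as its fall under CHIR-99021. MVD (-0.66 ± 0.07), HMGCS1 (-0.38 ± 0.05) and TM7SF2 (-0.38 ± 0.09) also had lower responses in CEM. SREBF1 fell less in CEM (0.69 ± 0.06, edgeR adjusted p = 1.2e-09), as did SCD (0.52 ± 0.05, edgeR adjusted p = 1.55e-08), EBP (0.31 ± 0.07) and DHCR7 (0.23 ± 0.06).

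SQLE, FASN and ACACA fell in both lines, and their differences between the lines were -0.01 ± 0.06, -0.13 ± 0.06 and 0.03 ± 0.05, none of them called. Of the 29 genes called in each line, 25 were called in both (86.2% of each), where over all genes tested in both the shares were 58.6% in Nalm6 and 74.5% in CEM. In all, 22 of the 25 moved in the same direction, where 87.0% of the genes called in both lines over the whole table did. The 3 that moved in opposite directions were LSS, IDI1 and ABCA1. The calls of ACAT2, FDPS, INSIG1 and SOAT1, with differences of -0.15, -0.14, -0.14 and 0.16, were each lost when several single libraries were left out (adjusted p up to 0.129, 0.0763, 0.104 and 0.0615) and with all genes kept. On unstranded counts those of ACAT2, INSIG1 and SOAT1 were lost, with RLE scaling those of ACAT2 and INSIG1, and by DESeq2 and with a minimum of 10 counts in every library that of ACAT2. With the untreated Nalm6 group of the dexamethasone set in place, 10 genes were higher and 8 lower, where 23.0% and 16.8% of all tested genes were, and 12 of the 22 calls kept call and direction, among them LSS, IDI1 and ABCA1. TM7SF2 (0.41) and INSIG1 (0.21) were then called in the opposite direction.

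**Figure D4:**
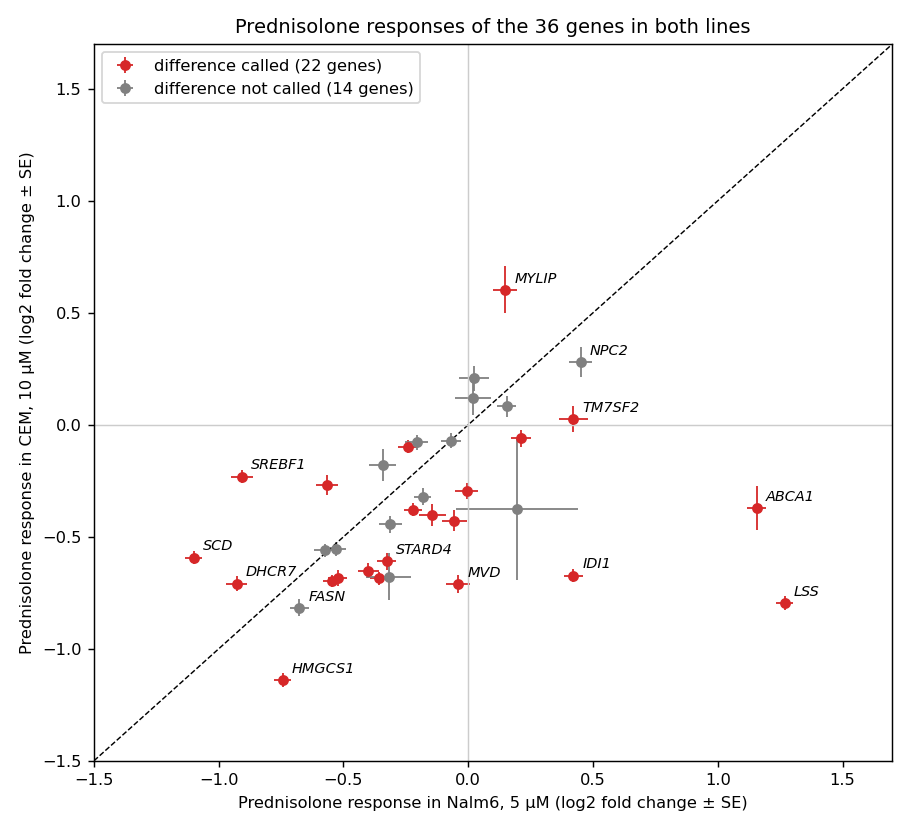
Log2 fold change ± SE under prednisolone in Nalm6 (horizontal axis) and CEM (vertical axis) for the 36 genes; red points have a called difference between the lines, the dashed line is equality and grey lines are 0. Most points lie in the lower left, while LSS, ABCA1 and IDI1 lie in the lower right, higher in Nalm6 and lower in CEM.

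CHIR-99021 moved few of the genes. In Nalm6 at 0.5 µM edgeR called 0 of the 36 higher and 3 lower, where 3.16% of all tested genes rose and 4.72% fell, and the median was 0.03 over the 36. At an unadjusted p under 0.05 there were 6 higher, and DESeq2 called 1 higher, INSIG1. This comparison shares its untreated libraries with the prednisolone comparison. ABCA1 was at 44.9, 39.7 and 40.9 CPM with CHIR-99021 against 52.7, 50.7 and 50.7 CPM untreated (log2 fold change -0.30 ± 0.05, edgeR adjusted p = 0.00629). ABCG1 was at 65.4, 68.4 and 80.0 CPM against 89.2, 91.7 and 90.8 CPM (-0.34 ± 0.06, edgeR adjusted p = 0.0106). Both exporters were lower in every treated library. SREBF2 was at 211, 213 and 194 CPM against 233, 246 and 243 CPM (-0.22 ± 0.05, edgeR adjusted p = 0.0207).

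None of the 18 synthesis enzymes was called by edgeR or DESeq2 in Nalm6 under CHIR-99021, and 4 were higher at an unadjusted p under 0.05. Without treated replicate 3, which had the lowest ratio of counts between strands of the 33 libraries (12.3) and stood apart from the other two (chi-square per degree of freedom of 42.1 and 43.7 with them, against 5.77 between them), 9 genes were called, where 7.41% of all tested genes were higher and 7.39% lower, with NSDHL, DHCR7, INSIG1, SCD, ACACA and NPC1 higher by 0.13 to 0.19 beside the same 3 lower. The SREBF2 call was lost without any 1 of the untreated libraries (adjusted p up to 0.123). That of ABCG1 was lost without untreated replicate 2 or 3 (up to 0.0665), leaving 1 call in the last 2 cases. Of all tested genes 2.32% and 2.23% were called there. With the untreated group of the dexamethasone set in place, 2 genes were higher and 17 lower, where 20.6% and 22.7% of all tested genes were, and ABCA1, ABCG1 and SREBF2 kept their calls. Against the first untreated group the wider list had 3 of 27 tested genes higher, where 3.16% of all tested genes were. The 3 were NCEH1, a cholesteryl ester hydrolase (0.26 ± 0.05), ELOVL5, a fatty acid elongase (0.19 ± 0.04) and TMEM97 (0.16 ± 0.04).

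CEM given 2 µM CHIR-99021 had 4 of the 36 genes higher and 3 lower, where 5.41% of all tested genes rose and 5.43% fell, and the median was 0.05. Its untreated libraries also served the prednisolone comparison. The fall of ABCA1 in this comparison was known when the gene list was drawn up, so its values are a description and, without it, 2 were lower: 4.79, 4.72 and 4.79 CPM untreated and 1.56, 1.91 and 2.23 CPM treated, a log2 fold change of -1.33 ± 0.12. ABCG1 went from 58.8, 56.0 and 59.0 CPM to 37.1, 39.7 and 40.3 CPM (-0.55 ± 0.04, edgeR adjusted p = 1.68e-05). SREBF1 went from 345, 349 and 344 CPM to 281, 292 and 308 CPM (-0.22 ± 0.04, edgeR adjusted p = 0.00414). MYLIP, another liver X receptor target, overlapped between the groups (0.00 ± 0.10).

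The genes that rose in CEM under CHIR-99021 changed little. MSMO1, the C4-methylsterol oxidase, was at 118, 115 and 117 CPM untreated and 128, 132 and 132 CPM treated (log2 fold change 0.19 ± 0.03, edgeR adjusted p = 0.00496). ACAT2 (0.17 ± 0.04), SQLE (0.16 ± 0.03) and STARD4 (0.17 ± 0.04) were the other 3. Each lost its call in some, not all, of the fits without untreated replicate 2, untreated replicate 3 or treated replicate 2 (adjusted p up to 0.0608, 0.0519 and 0.0618). ACAT2 was also not called on unstranded counts (edgeR adjusted p = 0.0591). The wider list had TMEM97 (0.28 ± 0.03) and DHDDS, a subunit of the dolichol synthase (0.15 ± 0.04), higher and LPIN1 (-0.15 ± 0.04) lower among 26 tested. Of all tested genes 5.41% were higher and 5.43% lower.

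CHIR-99021 was at 2 µM in CEM and 0.5 µM in Nalm6, and serum may differ too, so line, dose and serum cannot be told apart. The difference between these responses was called by edgeR for 0 genes in the higher direction and for 2 in the lower. Of all tested genes 0.630% and 0.545% were called. At an unadjusted p under 0.05 there were 2 higher and 4 lower, and DESeq2 called 0 higher and 3 lower. ABCA1, 1 of the 2, is again a description: its fall in CEM was further by 1.03 ± 0.12 on the log2 scale, from a lower untreated level. INSIG1 had responses of 0.15 ± 0.04 in Nalm6 and -0.11 ± 0.04 in CEM, neither called by edgeR, although DESeq2 called that in Nalm6 (adjusted p = 0.0276). Their difference was -0.25 ± 0.06 (edgeR adjusted p = 0.0411); that call was lost in 9 of 12 fits with a library left out, among them each that left out an untreated library (adjusted p up to 0.132). With the other untreated Nalm6 group in place it was 0.12 and not called, and 14 genes were higher and 2 lower, where 15.3% and 9.12% of all tested genes were. ABCG1 had a difference of -0.21 ± 0.09, which was not called.

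Between untreated CEM and untreated Nalm6 of the dexamethasone set, 20 of 36 genes were higher in CEM and 10 lower. Of all tested genes 40.2% were higher and 37.3% lower, so most genes of the whole table differed too. Synthesis and its control leaned to CEM: 12 of the 18 enzymes were higher and 3 lower, and 4 of the 5 regulators were higher. Charcoal-stripped serum is stated for the Nalm6 cultures, so a difference in serum cannot be told apart from the line. FDFT1, squalene synthase, was at 486, 476 and 491 CPM in CEM and 195, 197 and 196 CPM in Nalm6 (log2 difference 1.27 ± 0.04, edgeR adjusted p = 1.97e-12). FDPS, farnesyl diphosphate synthase, was at 571, 544 and 562 CPM against 260, 262 and 269 CPM (1.05 ± 0.04, edgeR adjusted p = 1.88e-11). INSIG1 was at 653, 625 and 653 CPM against 305, 293 and 294 CPM (1.08 ± 0.04, edgeR adjusted p = 2.44e-11). SCD (1.19 ± 0.04) and HMGCS1 (1.03 ± 0.04) were about as far apart.

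Of the 7 genes of liver X receptor signalling, efflux and storage, 2 were higher in CEM and 4 lower, and of the 3 transport genes 1 was higher and 2 lower. ABCA1 was at 4.79, 4.72 and 4.79 CPM in CEM and 77.05, 80.9 and 77.4 CPM in Nalm6. Its log2 difference was -4.08 ± 0.05, and -3.38 against the other untreated Nalm6 group. These CEM values are also those of its fall under CHIR-99021, so the difference is given as a description. MYLIP was lower in CEM by 1.80, NPC2 by 1.37, NPC1 by 1.07, ABCG1 by 0.84 and NR1H3 by 0.41, while STARD4 was higher by 0.49, SOAT1 by 0.22 and NR1H2 by 0.14. With the other untreated Nalm6 group in place, IDI1, CYP51A1, DHCR7 and INSIG2 lost their calls, and TM7SF2 (0.85, edgeR adjusted p = 1.39e-10), SC5D (-0.12), SCAP (0.14) and FASN (0.27) gained them. Across the 6 treatment comparisons, SCAP was called in 0 by DESeq2 or by edgeR in the fit used throughout. It had an unadjusted p under 0.05 in 2. With the other untreated group it was called lower under prednisolone in Nalm6 (-0.19, edgeR adjusted p = 0.00768). On unstranded counts it was called lower under prednisolone in the knockout (-0.18, edgeR adjusted p = 0.0494). NPC2 and MYLIP were called higher in 4 by edgeR. ABCA1 was called in all 6, higher in 3 and lower in 3. Its fall under CHIR-99021 in CEM, known beforehand, is among the lower and is a description. The fall of ABCA1 under prednisolone in CEM used the same untreated libraries and is a description too.

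Some levels carry limits of counting. CYP51A1 shares 79.4% of its exon bases with other records on the same strand in the GENCODE annotation used here, and reads that fit more than 1 gene are not counted, so its level of 3.55 to 7.65 CPM may not be that of the whole gene. ACAT2 shares 52.3% of its exon bases with genes on the opposite strand, which the strand column separates except for a small leak. HSD17B7 has a near-identical pseudogene copy, so its reads may be split.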

How the data were processed

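The deposited files are per-library tables of read counts per gene (counts as STAR writes them: unstranded, first strand, second strand), made by the authors; the submitters' processing notes name Bowtie2, DESeq2 and hg19, and how each was used is not given in the sources used here. Groups follow the sample titles, from which the text of the treatment protocol differs in places. Column 4 was used, since it held 12.3 to 15.3 times the counts of column 3. The 4 rows of totals were left out of library sizes: 2.84% to 11.2% of reads were unmapped, 4.83% to 7.55% multimapping, 18.4% to 32.7% in no gene and 4.70% to 7.45% ambiguous. Symbols were joined from the reference tables for 58652 of 62446 genes. Levels are CPM (counts scaled to a library total of 1000000), and errors are SD over 3 libraries or SE of a log2 fold change.

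Each of 13 comparisons was fitted on its own groups over all genes with edgeR 4.0.16 (R 4.3.3): filterByExpr, TMM, quasi-likelihood F test, Benjamini-Hochberg adjustment, called at adjusted p under 0.05, with an interaction term for differences between responses. The script was tested on simulated data. Alternatives were DESeq2 1.42.0, RLE scaling, unstranded counts, all genes kept, a minimum of 10 counts per library, a block on replicate number and each library left out; a fit of 2 libraries in a group takes its spread from all libraries in the comparison. The other untreated Nalm6 group was tried against CEM, and, chosen after seeing the data, in the knockout, prednisolone and CHIR-99021 comparisons that use the first one. The 36 genes, their roles, the wider list, the markers and the motifs were chosen with earlier results of these data known. Genes were named by role, taking in each comparison those called with the largest change; SQLE, MSMO1 and DHCR7 were also given in full, after their values were seen. Replicate numbers did not pair the libraries: in no comparison did every same-numbered pair deviate together with a correlation over 0.1.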

Additional observations from a re-analysis of the deposited data

Results flagged for a closer look

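28 differences between responses under the same drug passed the interaction test of edgeR, and ABCA1 under CHIR-99021 is given beside them as a description. Among the 28, that of ABCA1 between CEM and Nalm6 under prednisolone reuses the untreated CEM libraries of its CHIR-99021 fall. It is a description too. Several depend on the untreated Nalm6 group, as given under the processing. Of all tested genes, 1.10% had a higher and 2.38% a lower prednisolone response in the knockout. For CEM minus Nalm6 the shares were 14.7% and 12.2% under prednisolone and 0.630% and 0.545% under CHIR-99021. Between knockout and parental cells under prednisolone, log2 differences (knockout minus parental) were -0.42 for MVD, -0.32 for INSIG1, 0.58 for ABCA1, 0.35 for ABCG1 and 0.34 for MYLIP. Between CEM and Nalm6 under prednisolone, with line and dose not told apart, the response was lower in CEM by these log2 differences (CEM minus Nalm6): -0.15 for ACAT2, -0.38 for HMGCS1, -0.66 for MVD, -1.08 for IDI1, -0.14 for FDPS, -0.31 for FDFT1, -2.05 for LSS, -0.38 for TM7SF2, -0.24 for MSMO1, -0.25 for NSDHL, -0.36 for HSD17B7, -0.26 for SC5D, -0.14 for INSIG1, -0.27 for STARD4, -1.51 for ABCA1 and -0.28 for ABCG1. It was higher in CEM by 0.31 for EBP, 0.23 for DHCR7, 0.69 for SREBF1, 0.52 for SCD, 0.47 for MYLIP and 0.16 for SOAT1. Between CEM and Nalm6 under CHIR-99021, with line and dose not told apart, the difference was -0.25 for INSIG1. That of ABCA1 was -1.03, a description, since its fall in CEM was known when the list was drawn up. With 3 libraries a group, single libraries were not tested as outliers. Besides the CHIR-99021 library of Nalm6, untreated knockout libraries also differed. Their chi-square per degree of freedom was 29.3 and 33.0 between replicate 3 and the others, and 17.7 between replicates 1 and 2. In the untreated Nalm6 group of the dexamethasone set it was 10.8 and 18.6 for replicate 1 with the others, and 3.03 between replicates 2 and 3.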

How the results depend on the processing

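Of 255 calls over the 13 comparisons, 206 kept call and direction in every fit with a library left out and 187 in every setting run. The count for untreated knockout against parental cells was 21. It became 13 with a replicate block (12 higher, 1 lower) and ran from 9 to 25 with a library left out. Against the other untreated Nalm6 group, chosen after seeing the data, it was 13 (6 higher, 7 lower). Of all tested genes, 20.6% were called with the block, 16.5% to 36.7% with a library left out and 36.6% against the other group. Sign changes against that other group are listed only for genes called against either group. They were MVK (-0.10), FDPS (-0.050), FDFT1 (-0.20), TM7SF2 (-0.30), HSD17B7 (-0.091), EBP (-0.13), INSIG1 (-0.22), SREBF1 (-0.29), NPC2 (-0.20) and ABCG1 (-0.041). The cause was not tested. The replicate block moved no other count of calls by over 1.5 times.

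That other group was also put in place, chosen after seeing the data, in 5 more comparisons, and causes were again not tested. Reversals are again listed only for genes called with either group. CHIR-99021 in Nalm6 then had 19 calls, with reversed log2 fold changes for ACAT2 (-0.15), HMGCS1 (-0.16), MVK (-0.27), MVD (-0.33), EBP (-0.24), DHCR7 (-0.28), INSIG1 (-0.19), SREBF1 (-0.51) and NPC2 (-0.37). Prednisolone in Nalm6 had 29 calls, 23 of them unchanged in call and direction, with TM7SF2 reversed (-0.39). Knockout minus parental had 15 calls, with MVD (0.031), INSIG1 (0.037), TM7SF2 (0.79), DHCR7 (0.27) and SREBF1 (0.41) reversed. CEM minus Nalm6 under prednisolone had 18, with ACAT2 (0.066), FDPS (0.12), TM7SF2 (0.41), INSIG1 (0.21), STARD4 (0.0017), MVK (0.24), ACACA (-0.28) and NPC2 (0.28) reversed. Under CHIR-99021 it had 16, with INSIG1 (0.12), DHCR7 (0.40) and SREBF1 (0.32) reversed.

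The count of 5 differences between knockout and parental prednisolone responses was 2 on unstranded counts and 2 to 8 with a library left out. That of 2 between the lines under CHIR-99021 was 1 on unstranded counts and 1 to 3 with a library left out. The 3 calls under CHIR-99021 in Nalm6 ran from 1 to 9. In the same order, 1.99% to 9.96%, 0.722% to 1.91% and 2.23% to 14.8% of all tested genes were called with a library left out. For glucocorticoids against untreated cells the ranges were 27 to 29 (prednisolone, Nalm6), 23 to 29 (dexamethasone), 26 to 29 (prednisolone, knockout) and 27 to 30 (prednisolone, CEM). The shares of all tested genes were 48.5% to 53.3%, 54.5% to 60.8%, 32.3% to 43.0% and 37.9% to 44.5%. Depth limits APOE, which was under 1 CPM in every library, where 3 counts are 0.0484 to 0.119 CPM.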
